A study of Homo sapiens with 6 samples.

Results

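The genes described here are 48 components of Wnt signalling: 8 ligands, 8 Frizzled receptors, 5 co-receptors and other receptors, 8 secreted antagonists with the DKK receptor KREMEN1, 4 genes of the R-spondin arm, 10 cytoplasmic transducers and 4 nuclear factors. They were taken by gene name from a table of 57819 genes, in which every one of the 48 was found, and 42 had enough reads to be tested. RNA came from IMR90 ER:Ras cells, human lung fibroblasts that carry an inducible oncogene, Ras joined to the hormone-binding part of an estrogen receptor. All 6 libraries came from cells given 200 nM 4-hydroxytamoxifen (4OHT) for 3 days. The drug switches the fusion on and drives the cells into senescence. The control group was given a scrambled siRNA (siSCR) and the knockdown group an siRNA that targets sin-lncRNA, a long noncoding RNA, with 3 libraries each. Control and knockdown cells therefore share the oncogene and the drug, untreated cells are not analysed here, and the knockdown rests on siRNA transfection rather than on a deletion. The labels give all 3 knockdown libraries the same siRNA name. Effects of this siRNA on other RNAs cannot be told apart from loss of sin-lncRNA. The labels do not say whether the replicates were separate cultures, so p-values measure the spread between these libraries, which may be technical.

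Wnt ligands are secreted, lipid-modified proteins that bind Frizzled receptors. Together with the co-receptors LRP5 and LRP6 they hold back the destruction complex of APC, AXIN and GSK3B, so that beta-catenin (CTNNB1) is spared and acts with TCF and LEF factors in the nucleus. Ligands such as WNT5A can instead signal through ROR and RYK receptors without beta-catenin. Secreted proteins tune the system: SFRP proteins and WIF1 bind the ligands, DKK1 and DKK2 bind LRP5 and LRP6, and R-spondins with LGR receptors protect Frizzled proteins from the ubiquitin ligases RNF43 and ZNRF3. In fibroblasts, WNT16 and SFRP1 have both been tied to the senescent state.

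Values are given as RPM, the reads of a gene per 1000000 of the library's effective size. Libraries held 30271192 to 50913672 reads in genes in controls and 22117324 to 27882280 in knockdowns, so every knockdown library was shallower. The targeted lncRNA (RIPOR3-AS1, found through its synonym in the RefSeq gene table and listed as RP4-530I15.6) stood at 3.70, 4.73 and 4.09 RPM in controls and 0.493, 0.640 and 0.534 RPM in knockdowns, lower in all 3 (log2 fold change -2.86, SE 0.18; limma adjusted p = 7.9e-07). All 10 fibroblast markers looked for were present, summing to 17016 to 19012 RPM in controls and 13071 to 14186 RPM in knockdowns (3 higher and 5 lower). Among them COL1A1 and COL1A2 fell and LUM and COL3A1 rose. Epithelial markers summed to 8.76 to 10.6 RPM in controls and 4.84 to 5.91 RPM in knockdowns. Most of this was KRT19 (log2 fold change -1.31, limma adjusted p = 0.00034) and CLDN4 (-0.58, 0.0027), both lower. KRT5 was at 0 in every library and CDH1 at most 0.0448 RPM. Of 6 endothelial markers looked for, 5 were found by name, and PECAM1 was not. These 5 summed to 15.3 to 18.6 RPM in controls and 10.8 to 11.3 RPM in knockdowns, mostly TIE1, which fell (-0.76). VWF rose (0.42, limma adjusted p = 0.034), and KDR, CDH5 and CLDN5 were at most 0.128 RPM. Immune markers summed to at most 0.641 RPM, and pericyte and smooth muscle markers to 275.4 to 334.6 RPM in controls and 249.9 to 288.3 RPM in knockdowns. Of the pericyte and smooth muscle markers, RGS5 rose (1.17) and CSPG4 fell (-0.42). The part of these shifts in the Wnt values was not tested. In bulk RNA, fewer cells of a kind and less RNA per cell cannot be told apart.

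Wnt genes moved in both directions after sin-lncRNA depletion. Of the 42 tested, 27 changed, 16 upward and 11 downward (limma, Benjamini-Hochberg adjusted p under 0.05 over all genes), against a background of 41.0% of all 19048 genes tested (17.5% higher, 23.5% lower) and 48.6% of the 13002 protein-coding ones. That is 64.3% of the tested members. Their median absolute log2 fold change was 0.39, beside 0.23 over all genes tested, while the median of the signed values was close to zero in both (0.05 and -0.04). For 30 of the 42 the control and knockdown values did not overlap at all, where this held for 51.1% of all genes tested. The members and their number were chosen with earlier results of these data known, so these counts describe the list.

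**Figure D1:**
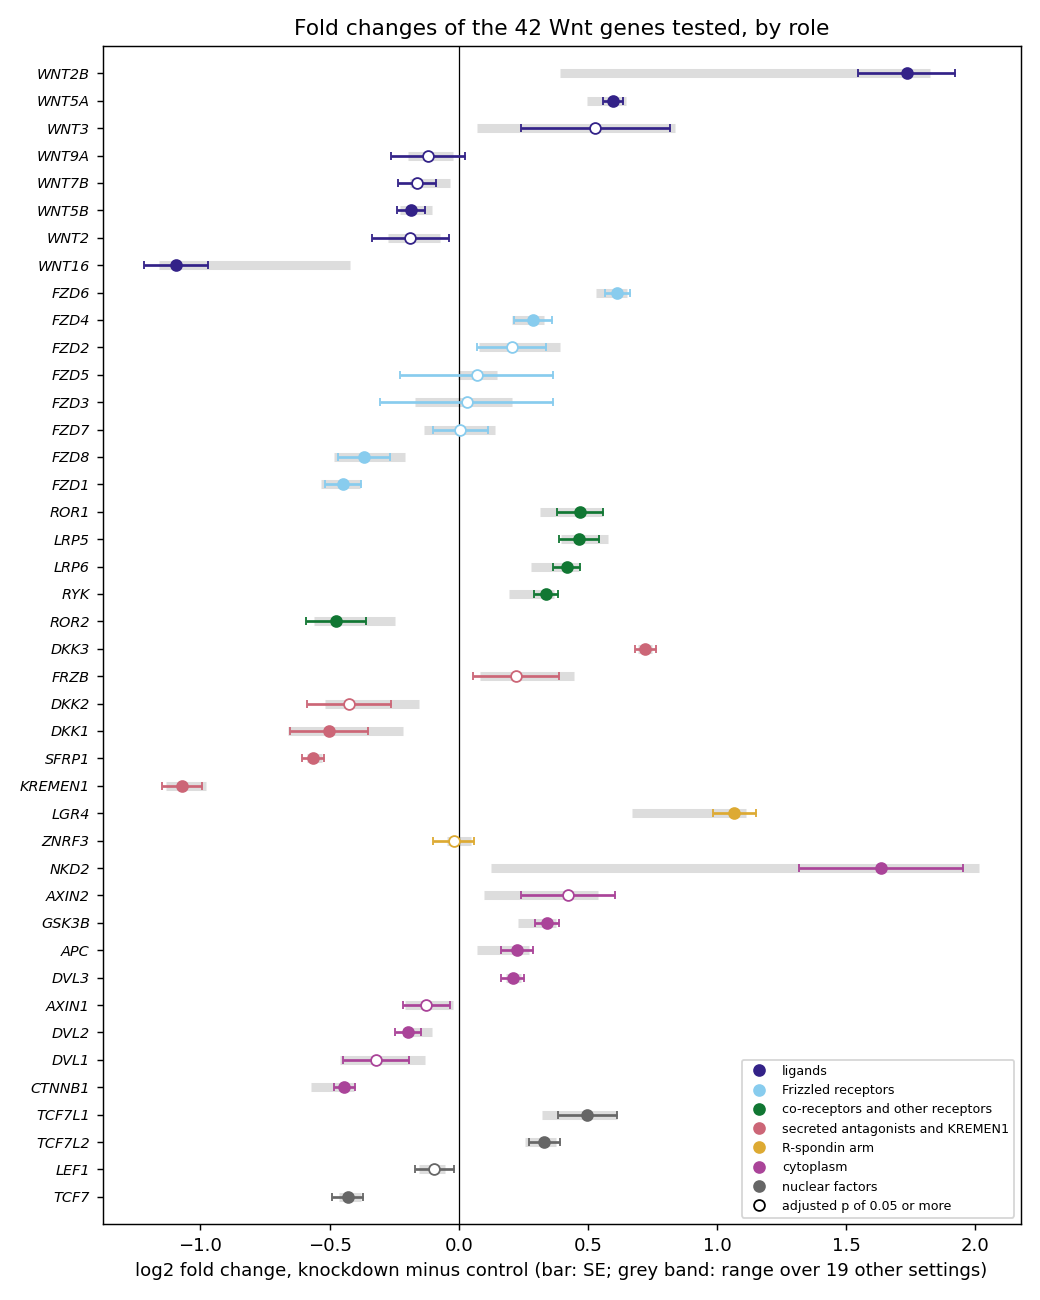
Log2 fold change (knockdown minus control, x axis) of the 42 Wnt genes tested, grouped by role, with SE bars; filled points passed an adjusted p of 0.05 and grey bands span 19 other ways of processing the data. The widest bands, those of WNT2B and NKD2, reach 0.39 and 0.12 where 5 RPM was added before the logarithm.

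The largest changes were in genes with modest or low levels per length. Of the members that passed the test, 5 reached at least 1 on the log2 scale (2.95% of all genes tested passed both limits): the ligand WNT2B (1.73), the Dishevelled inhibitor NKD2 (1.64) and the R-spondin receptor LGR4 (1.07) rose, while the ligand WNT16 (-1.09) and KREMEN1 (-1.07) fell. A further 5 members passed both the test and 0.5, namely WNT5A, FZD6 and DKK3 upward and SFRP1 and DKK1 downward. That made 10 of the 42 members tested, where 13.9% of all genes tested passed both of these limits. WNT3, at 0.53, did not pass the test. Of the 10, SFRP1, DKK3, WNT5A and FZD6 were also among the 10 members with the highest levels per length.

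**Figure D2:**
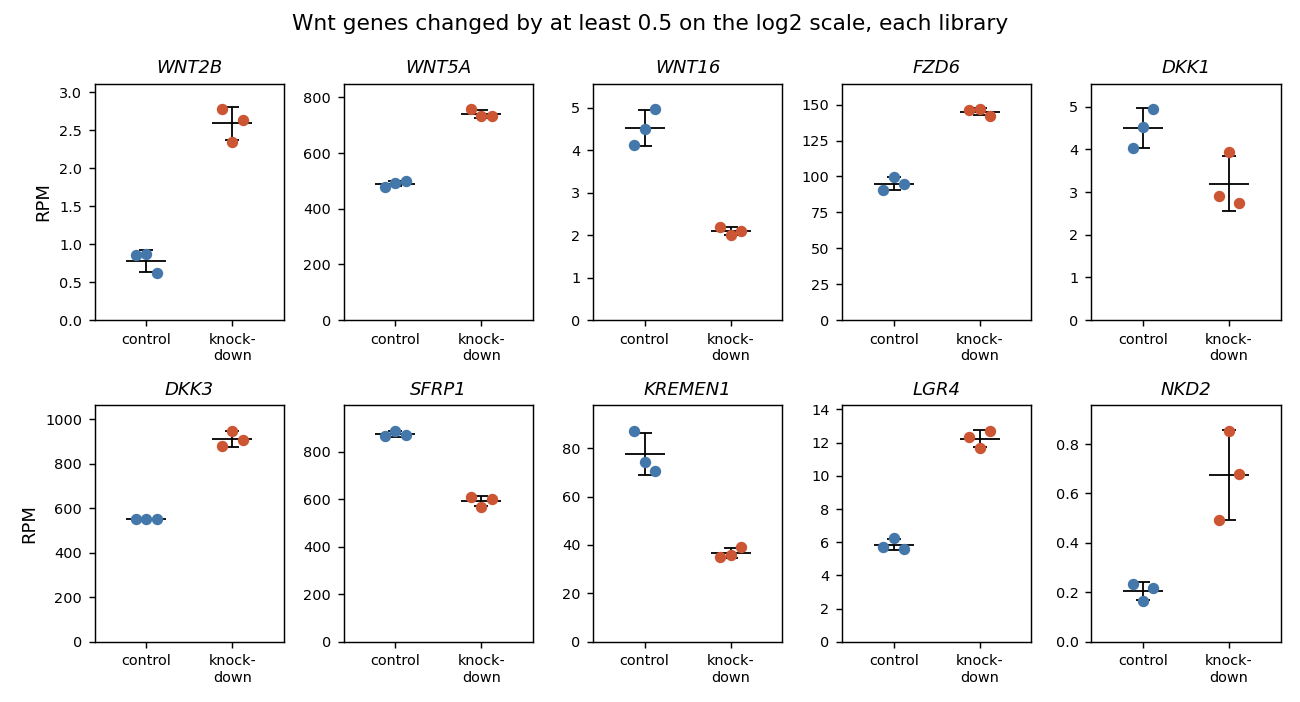
RPM (y axis, from 0) in each library for the 10 Wnt genes that passed the test and changed by at least 0.5 on the log2 scale; points are libraries, long bars the means and error bars the SD of 3. Control and knockdown points do not overlap in any panel, and DKK1 comes closest, with 3.93 RPM in a knockdown library and 4.02 RPM in a control.

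Promoter sequences are shown for the changed members with the largest fold changes that the RefSeq promoter table (GRCh38.p14) holds, and for DKK1, a known Wnt target gene. Each runs 5′ to 3′ on the gene's strand from 250 bases before to 50 bases after the annotated start. Capitals mark matches to 4 TCF/LEF-type words, the word CTTTGAA, the word CTTTGAT, the word CTTTGTA and the word CTTTGTT, searched on both strands. The table's coordinates are those of GRCh38, whereas the expression table uses hg19.
DKK1 promoter, chr10:52314031-52314330 (GRCh38, plus strand): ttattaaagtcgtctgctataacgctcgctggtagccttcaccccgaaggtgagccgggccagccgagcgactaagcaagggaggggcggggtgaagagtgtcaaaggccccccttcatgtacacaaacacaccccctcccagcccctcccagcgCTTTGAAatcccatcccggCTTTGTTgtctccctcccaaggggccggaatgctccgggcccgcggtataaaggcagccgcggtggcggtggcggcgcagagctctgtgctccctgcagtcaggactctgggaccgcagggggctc
WNT2B promoter, chr1:112466291-112466590 (GRCh38, plus strand): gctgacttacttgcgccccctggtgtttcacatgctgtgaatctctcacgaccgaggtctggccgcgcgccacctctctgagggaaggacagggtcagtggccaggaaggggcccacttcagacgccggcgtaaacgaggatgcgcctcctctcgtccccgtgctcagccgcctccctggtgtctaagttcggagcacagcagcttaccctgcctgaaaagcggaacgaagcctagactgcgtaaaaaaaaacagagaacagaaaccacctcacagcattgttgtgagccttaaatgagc
LGR4 promoter, chr11:27472741-27473040 (GRCh38, minus strand): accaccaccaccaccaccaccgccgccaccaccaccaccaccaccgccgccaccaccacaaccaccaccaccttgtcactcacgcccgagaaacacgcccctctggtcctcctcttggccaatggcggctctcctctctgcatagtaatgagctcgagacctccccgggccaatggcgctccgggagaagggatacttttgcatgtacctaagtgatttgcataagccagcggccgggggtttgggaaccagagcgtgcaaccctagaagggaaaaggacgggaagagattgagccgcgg
NKD2 promoter, chr5:1008552-1008851 (GRCh38, plus strand): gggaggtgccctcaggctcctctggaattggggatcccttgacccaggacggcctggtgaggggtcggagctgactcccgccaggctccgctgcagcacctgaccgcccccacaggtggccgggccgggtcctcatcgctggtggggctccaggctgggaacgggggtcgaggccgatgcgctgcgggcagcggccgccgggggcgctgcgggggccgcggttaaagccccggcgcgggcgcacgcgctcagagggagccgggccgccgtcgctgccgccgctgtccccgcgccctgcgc
WNT16 promoter, chr7:121328750-121329049 (GRCh38, plus strand): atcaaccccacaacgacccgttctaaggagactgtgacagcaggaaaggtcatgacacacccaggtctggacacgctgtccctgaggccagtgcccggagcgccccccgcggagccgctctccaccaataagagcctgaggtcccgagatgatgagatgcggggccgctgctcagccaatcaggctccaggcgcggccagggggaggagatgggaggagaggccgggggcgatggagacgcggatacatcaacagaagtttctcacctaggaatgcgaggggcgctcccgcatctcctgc
The DKK1 window held 2 such words, beginning 95 and 76 bases before the start. None of the other 4 held one. Of the 35 members found in the promoter table, 2 had at least 1 word (5.71%), DKK1 and WNT3, compared with 8.58% of the 11123 promoters of tested genes and 13.9% of all 27305. The Wnt windows were GC-rich, with a median GC content of 67.0% and 28 CpG dinucleotides, beside 65.3% and 26 for the tested genes. A match is a description of letters, and its absence says nothing about the factors.

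Among the ligands, 2 rose, 2 fell and 4 did not pass the test. The share that changed was 50%, near the 48.6% of all protein-coding genes tested (41.0% of all genes tested). WNT5A, the main ligand of beta-catenin-independent signalling, was by far the most abundant. It stood at 479.0, 493.6 and 499.1 RPM in controls and at 758.7, 733.7 and 733.5 RPM in knockdowns. The groups did not overlap and were far apart relative to their spread, with means of 490.6 ± 10.4 and 741.9 ± 14.5 RPM (SD, n = 3) and a log2 fold change of 0.60 (SE 0.04; limma adjusted p = 1.1e-06). Per length, WNT5A held 79.7% ± 0.5 of the summed RPKM (RPM per kilobase of exon) of the 8 ligands in controls and 87.3% ± 0.4 in knockdowns. The gene lies at chr3:55499743-55523973 on the minus strand (hg19).

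WNT2B (chr1:113009163-113072787, plus strand), a ligand that can activate beta-catenin, was low in every library, with 29, 26 and 31 reads in controls and 62, 55 and 74 in knockdowns. In RPM these were 0.852, 0.866 and 0.616 against 2.78, 2.35 and 2.64, so all knockdown libraries were well above all controls. Its mean level was 3.33-fold higher, and its log2 fold change was 1.73 (SE 0.19; limma adjusted p = 4.1e-05). It overlaps ST7L on the opposite strand, which had more reads than WNT2B (8.14 ± 0.55 and 7.50 ± 0.44 RPM; log2 fold change -0.12, limma adjusted p = 0.33). Whether counting used strand is not given in the sources used here. The log2 fold change of WNT2B was 1.01 when 1 RPM and 0.39 when 5 RPM was added before the logarithm, by construction for a gene this low.

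WNT16 (chr7:120965421-120981158, plus strand) moved the other way. It stood at 4.11, 4.50 and 4.97 RPM in controls and 2.20, 2.01 and 2.10 RPM in knockdowns, with no overlap, on 47 to 250 reads per library. Its mean in knockdowns was 0.464 of that in controls, and its log2 fold change was -1.09 (SE 0.12; limma adjusted p = 5.6e-05). With 5 RPM added this was -0.42. WNT5B, a close relative of WNT5A, fell slightly, from 46.3 ± 2.6 to 40.7 ± 0.7 RPM (log2 fold change -0.18, SE 0.05; limma adjusted p = 0.020). This call was lost without control replicate 3 (log2 fold change -0.15, limma adjusted p = 0.11), without knockdown replicate 3 (-0.17, 0.071), and after removal of the GC and length trend (-0.10, 0.18). WNT5A and WNT5B had log2 fold changes of opposite sign.

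The remaining ligands did not pass the test. WNT7B went from 16.4 ± 1.1 to 14.6 ± 0.5 RPM (log2 fold change -0.16, SE 0.07), WNT2 from 3.12 ± 0.46 to 2.73 ± 0.32 (-0.19, SE 0.15) and WNT9A from 2.47 ± 0.25 to 2.27 ± 0.22 (-0.12, SE 0.14). WNT3 had 12 to 29 reads per library and a log2 fold change of 0.53 (SE 0.29; limma adjusted p = 0.17). Knockdown replicate 1, at 0.538 RPM, was level with the controls, and without it the value was 0.84 (limma adjusted p = 0.022). Without knockdown replicate 2 or 3 it was 0.36 and 0.39, not called.

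The Frizzled receptors, the seven-pass receptors of Wnt ligands, split in the same manner: FZD6 and FZD4 rose, FZD1 and FZD8 fell, and FZD2, FZD3, FZD5 and FZD7 did not pass the test. The share of Frizzled genes that changed was 50%, near the 48.6% of all protein-coding genes tested (41.0% of all genes tested). FZD6 (chr8:104310661-104345094, plus strand) read 90.3, 99.6 and 94.7 RPM in controls and 146.2, 147.0 and 142.2 RPM in knockdowns, all above the controls. Its log2 fold change was 0.61 (SE 0.05; limma adjusted p = 3.6e-06). FZD4 went from 11.5 ± 0.2 to 14.0 ± 0.9 RPM (log2 fold change 0.29, SE 0.07; limma adjusted p = 0.0094). FZD4 overlaps PRSS23 on the opposite strand, a much more abundant gene that fell (240.1 ± 5.2 to 200.9 ± 6.1 RPM).

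FZD1 read 221.4, 179.6 and 205.7 RPM in controls and 143.3, 155.2 and 144.6 RPM in knockdowns. The groups did not overlap although control replicate 2 was lower than the other 2 controls, and the log2 fold change was -0.45 (SE 0.07; limma adjusted p = 0.00044). FZD8 went from 36.4 ± 3.5 to 28.3 ± 4.2 RPM (log2 fold change -0.37, SE 0.10; limma adjusted p = 0.013). The FZD8 call was lost without control replicate 3 (-0.29, limma adjusted p = 0.065), knockdown replicate 1 (-0.28, 0.051) or knockdown replicate 3 (-0.34, 0.058), and after the GC and length correction (-0.21, 0.082).

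FZD7 and FZD2 showed the widest spread between replicates of the abundant receptors. FZD7 read 133.2, 91.4 and 111.6 RPM in controls and 104.3, 113.4 and 116.3 RPM in knockdowns, a log2 fold change of 0.01 (SE 0.11). It was -0.13 without control replicate 2, -0.01 without knockdown replicate 2 and -0.03 without knockdown replicate 3, with no call in any of these fits. FZD2 read 42.4, 29.8 and 35.5 RPM in controls and 33.8, 46.1 and 44.2 RPM in knockdowns, so that the groups overlapped (log2 fold change 0.20, SE 0.13; limma adjusted p = 0.24). FZD2 was called higher without knockdown replicate 1 (0.34, limma adjusted p = 0.047) and after the GC and length correction (0.39, 0.00013). It was smaller without control replicate 2 (0.08, limma adjusted p = 0.62) or knockdown replicate 2 (0.12, 0.55). FZD3 and FZD5 held only 6 to 15 and 7 to 15 reads per library, and their log2 fold changes were 0.03 (SE 0.33) and 0.07 (SE 0.30).

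The summed RPKM of the 8 Frizzled genes was 109.1 ± 10.1 in controls and 114.3 ± 6.0 in knockdowns, a difference within the spread of the controls. Within that sum the share of FZD1 went from 26.6% ± 0.4 to 18.6% ± 0.6 and that of FZD6 from 21.6% ± 3.1 to 31.3% ± 1.8, while FZD7 held 26.5% ± 2.5 and 25.2% ± 0.8. FZD7, FZD1 and FZD6 had the highest levels per length of the 8 in controls, and FZD6 had the highest in knockdowns.

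**Figure D3:**
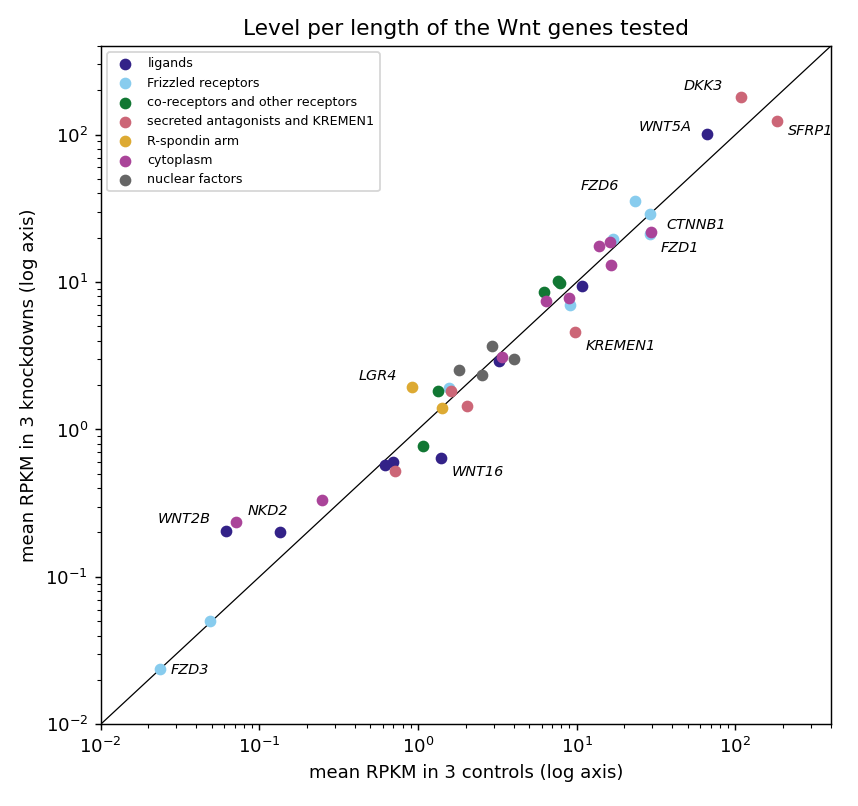
Mean RPKM of the 42 tested Wnt genes in 3 knockdown libraries (y axis) against 3 control libraries (x axis), both on log axes, coloured by role; the line marks equal levels. SFRP1, DKK3 and WNT5A have the highest levels in both groups, with SFRP1 and DKK3 on opposite sides of the line, and FZD3 has the lowest level in controls (0.0236 RPKM).

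All 5 co-receptors and other receptors changed, 4 upward and 1 downward, where 41.0% of all genes tested and 48.6% of the protein-coding ones did. LRP6, a co-receptor of beta-catenin signalling, went from 78.7 ± 4.6 to 105.2 ± 3.2 RPM (log2 fold change 0.42, SE 0.05; limma adjusted p = 0.00011). Its relative LRP5 went from 38.2 ± 3.0 to 52.8 ± 5.2 RPM (log2 fold change 0.47, SE 0.08; limma adjusted p = 0.00079). RYK, a receptor with an inactive kinase domain, rose from 62.7 ± 1.0 to 79.2 ± 2.7 RPM (0.34, SE 0.05). The paired receptors ROR1 and ROR2, which bind WNT5A, went apart: ROR1 rose from 8.94 ± 1.01 to 12.3 ± 0.3 RPM (0.47, SE 0.09; limma adjusted p = 0.0018), and ROR2 fell from 6.25 ± 0.63 to 4.48 ± 0.42 RPM (-0.48, SE 0.12; limma adjusted p = 0.0069). With all libraries thinned to the smallest total, ROR2 was at -0.34 and not called (limma adjusted p = 0.061). The knockdown libraries of all 5 genes lay wholly outside the range of the controls, as was the case for 51.1% of all genes tested.

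The secreted antagonists held the most abundant members, and their leading pair changed in opposite directions. SFRP1, which binds Wnt ligands outside the cell, lies at chr8:41119481-41167016 on the minus strand. It read 867.2, 889.1 and 870.5 RPM in controls and 608.8, 566.9 and 602.3 RPM in knockdowns. The groups did not overlap, and the fall was large against a spread of a few percent, at a log2 fold change of -0.56 (SE 0.04; limma adjusted p = 2.6e-06). DKK3 (chr11:11984653-12031316, minus strand), the divergent member of the Dickkopf family, read 550.8, 551.7 and 553.5 RPM in controls and 878.2, 949.0 and 906.4 RPM in knockdowns, again without overlap. Its log2 fold change was 0.72 (SE 0.04; limma adjusted p = 5.0e-07), the smallest adjusted p of the 42 genes tested.

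The ratio of DKK3 to SFRP1, in RPKM, was 0.593 ± 0.008 in controls and 1.45 ± 0.11 in knockdowns (SD, n = 3). The summed RPKM of the 8 antagonists was 297.4 ± 2.3 in controls and 308.4 ± 3.0 in knockdowns. Like the ratio, this sum depends on the lengths assumed, and it was not computed with other lengths. The order of the pair within controls depended on the length assumed, which was the union of GENCODE 29 exons. With the longest transcript instead, an alternative chosen after seeing the data, the ratio was 1.07 ± 0.01 in controls and 2.61 ± 0.20 in knockdowns. In both cases it was higher in all 3 knockdown libraries.

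DKK1 (chr10:54074056-54077802, plus strand), whose promoter is printed above, blocks LRP5 and LRP6 and is itself a Wnt target. It read 4.02, 4.53 and 4.95 RPM in controls and 2.91, 3.93 and 2.74 RPM in knockdowns, all below the controls but close to them in knockdown replicate 2. The log2 fold change was -0.50 (SE 0.15; limma adjusted p = 0.021), and the call was lost without control replicate 3 (-0.43, limma adjusted p = 0.095), knockdown replicate 1 (-0.45, 0.065) or knockdown replicate 3 (-0.40, 0.084). DKK2 went from 3.08 ± 0.62 to 2.26 ± 0.23 RPM and did not pass the test (-0.43, SE 0.16; limma adjusted p = 0.057), but did so without control replicate 1 (-0.52, 0.040). Without control replicate 2 it was smaller, at -0.27 (limma adjusted p = 0.22). It overlaps the pseudogene RAC1P5 on the same strand, which held nearly as many reads.

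KREMEN1 (chr22:29469066-29564321, plus strand), a membrane protein that removes LRP6 from the surface together with DKK1, showed the strongest fall of this group. It read 87.2, 74.4 and 70.8 RPM in controls and 35.1, 35.9 and 39.2 RPM in knockdowns, all below the controls. The mean in knockdowns was 0.474 of that in controls, a log2 fold change of -1.07 (SE 0.08; limma adjusted p = 2.3e-06). FRZB, another ligand-binding antagonist, read 5.08 ± 1.46 and 5.79 ± 0.33 RPM (0.22, SE 0.17). Control replicate 1 stood apart from the other controls for FRZB, and without it FRZB was called higher (0.45, limma adjusted p = 0.010). Without control replicate 2 or 3 the value was 0.08 or 0.14 (limma adjusted p = 0.72 and 0.61). SFRP4 and WIF1 had 0 reads in all libraries and SFRP2 at most 1 read; 0 reads allow up to 0.0596 to 0.134 RPM, depending on the library (3 reads, counting error only).

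In the R-spondin arm, LGR4 rose while the ligase ZNRF3 did not pass the test. LGR4 (chr11:27387508-27494322, minus strand), a receptor for R-spondins, read 5.73, 6.23 and 5.58 RPM in controls and 12.3, 11.7 and 12.7 RPM in knockdowns. All knockdown libraries lay far above all controls, the mean was 2.10-fold higher, and the log2 fold change was 1.07 (SE 0.08; limma adjusted p = 4.1e-06), or 0.67 with 5 RPM added. ZNRF3 read 9.87 ± 0.44 and 9.73 ± 0.49 RPM (log2 fold change -0.02, SE 0.08). RNF43 was listed with 0 reads in every library; it overlaps the abundant SUPT4H1 on the same strand. RSPO3 had 4, 1 and 6 reads in controls and 1, 0 and 0 in knockdowns, which is at or near the floor in both groups.

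In the cytoplasm, 6 of 9 tested transducers changed (66.7%), 4 upward and 2 downward. Over all genes tested the share was 41.0%, and over the protein-coding ones 48.6%. CTNNB1, which encodes beta-catenin, read 347.6, 358.5 and 352.8 RPM in controls and 271.2, 253.4 and 254.7 RPM in knockdowns. The groups were separated by several times their spread, and the log2 fold change of CTNNB1 was -0.44 (SE 0.04; limma adjusted p = 1.5e-05). GSK3B, the kinase that marks beta-catenin for destruction, went the other way. It read 115.5, 113.5 and 109.9 RPM in controls and 150.6, 136.3 and 143.0 RPM in knockdowns (0.34, SE 0.05; limma adjusted p = 0.00024).

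APC, the scaffold of the destruction complex, went from 79.8 ± 5.7 to 93.3 ± 5.2 RPM (0.23, SE 0.06; limma adjusted p = 0.013). Its call was lost without knockdown replicate 3 (0.20, limma adjusted p = 0.066) and after the GC and length correction (0.07, 0.26). AXIN1, the other scaffold, did not pass the test (-0.13, SE 0.09). AXIN2, a feedback inhibitor and common readout of beta-catenin signalling, had 41 to 56 reads per library. It read 1.29 ± 0.15 and 1.73 ± 0.24 RPM; the 3 knockdown values lay above the controls, but the log2 fold change of 0.42 (SE 0.18) did not pass the test (limma adjusted p = 0.083).

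The 3 Dishevelled genes, which relay the signal from Frizzled, did not move alike. DVL3 read 104.2, 99.0 and 104.8 RPM in controls and 115.4, 121.4 and 119.2 RPM in knockdowns (0.21, SE 0.04; limma adjusted p = 0.0034). It overlaps EIF2B5 on the same strand, which had a log2 fold change of 0.20. DVL2 fell, from 46.6 to 50.0 RPM in controls to 41.1 to 42.7 RPM in knockdowns (-0.20, SE 0.05; limma adjusted p = 0.0097) and was not called after the GC and length correction (-0.11, 0.085). DVL1 read 70.2, 51.2 and 66.4 RPM in controls and 41.9, 58.7 and 49.8 RPM in knockdowns, so the groups overlapped, and its log2 fold change was -0.32 (SE 0.13; limma adjusted p = 0.067). DVL1 passed the threshold without control replicate 2 (-0.46, 0.0034) or knockdown replicate 2 (-0.44, 0.020), the libraries at the inner edge of each group. Without knockdown replicate 1 it was -0.20 (limma adjusted p = 0.24).

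NKD2 (chr5:1008944-1039058, plus strand) was close to the lower limit of what could be tested, with 8, 5 and 11 reads in controls and 11, 20 and 19 in knockdowns. In RPM these were 0.235, 0.167 and 0.219 against 0.493, 0.854 and 0.677, with no overlap. Its log2 fold change of 1.64 (SE 0.32; limma adjusted p = 0.0019) was 0.47 with 1 RPM and 0.12 with 5 RPM added. Its relative NKD1 had at most 2 reads in any library.

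Of the 4 nuclear factors, 3 changed (75%, beside 41.0% of all genes tested and 48.6% of the protein-coding ones). TCF7, whose protein acts with beta-catenin, fell from 40.6 ± 1.8 to 30.1 ± 1.4 RPM (-0.43, SE 0.06; limma adjusted p = 0.00020). It overlaps the more abundant SKP1 on the opposite strand, which had a log2 fold change of 0.09. TCF7L1, chiefly a repressor of Wnt targets, rose from 7.95 ± 1.29 to 11.1 ± 0.3 RPM (log2 fold change just under 0.50, SE 0.11; limma adjusted p = 0.0050). TCF7L2 rose from 19.7 ± 0.6 to 24.8 ± 0.7 RPM (0.33, SE 0.06; limma adjusted p = 0.0012). LEF1 went from 13.5 ± 1.0 to 12.6 ± 0.4 RPM and did not pass the test (-0.09, SE 0.08).

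GC content moved with the spread between replicates, and members differ in it. Across the 18546 tested genes with a GC value, deviations from the group mean correlated with the GC content of the longest transcript at Spearman's rho 0.35, -0.31 and -0.03 in controls 1, 2 and 3 and -0.36, 0.28 and 0.13 in knockdowns 1, 2 and 3. These are correlations across genes, which are not independent. FZD2 (64.9% GC), DVL1 (67.2%) and FZD7 (52.8%) were each high in control replicate 1, low in control replicate 2 and low in knockdown replicate 1. Not every GC-rich member did so: FZD8 (64.6%) and WNT7B (63.0%) stood at -0.11 and -0.06 from the group mean in control replicate 1, on the log2 scale, and WNT9A (59.5%) stood at 0.15 in control replicate 2. FZD2, DVL1 and FZD7 were chosen after their values were seen, and FZD7 is near the median GC content of the tested members, 50.6%. Members that rose had a median GC content of 44.3% and those that fell 54.9%, beside 44.7% and 50.9% for all genes that rose or fell. With the GC and length trend of each library removed, 26 members were called, 16 upward and 10 downward: WNT5B, FZD8, APC and DVL2 were no longer called, and FZD2, DKK2 and DVL1 were.

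**Figure D4:**
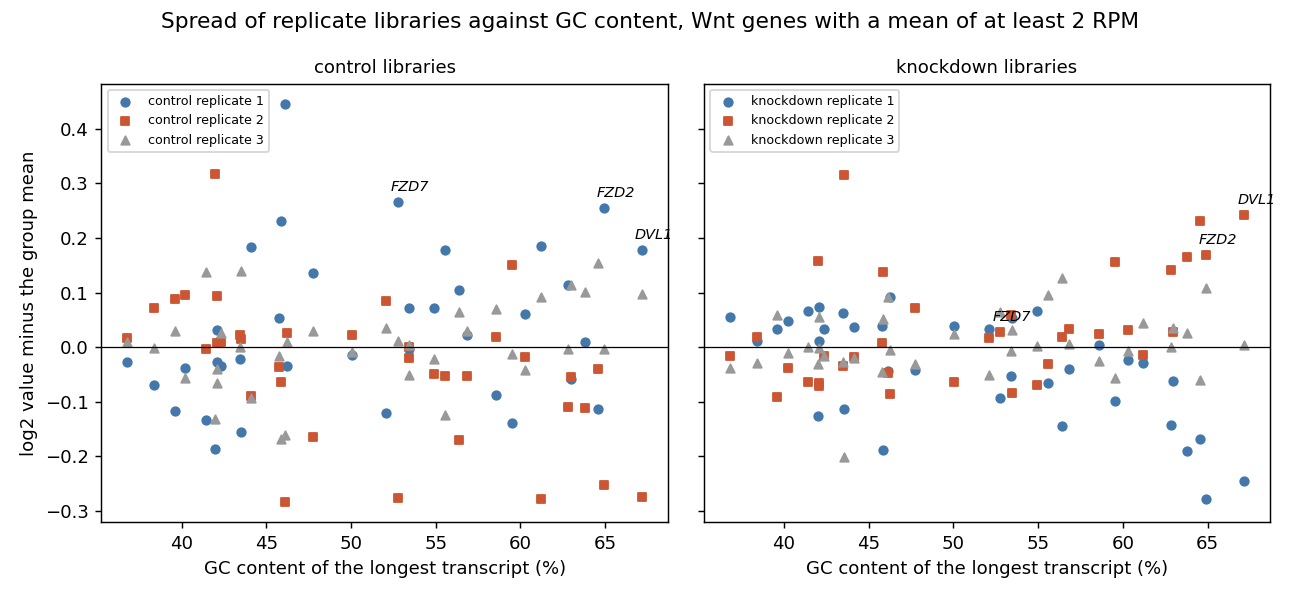
Each library's log2 value minus its group mean (y axis) against GC content (x axis, %) for the 36 Wnt genes with a mean of at least 2 RPM, controls left and knockdowns right, 1 symbol per replicate. At high GC content control replicate 2 and knockdown replicate 1 tend to lie below zero, and FZD2, FZD7 and DVL1 are named.

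The rest of the pathway was read from a list of other Wnt genes, of which 102 were in the table and 76 were tested. Of these, 45 changed, 26 upward and 19 downward (59.2%, beside 41.0% of all genes tested and 48.6% of the protein-coding ones). The median log2 fold change was 0.05. The median absolute value, 0.22, was no larger than the 0.23 of all genes tested. Leaving out 1 library gave 32 to 41 calls, lowest without control replicate 3. WLS, PORCN and CCND1 are named for their roles, after their values were seen. WLS, the carrier that takes Wnt ligands to the cell surface, fell from 1937 ± 33 to 1403 ± 20 RPM (log2 fold change -0.47, SE 0.04; limma adjusted p = 6.0e-06). PORCN, which attaches the lipid to the ligands, did not pass the test (-0.12, SE 0.08).

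By fitted value, the largest falls in that list were in RSPO2, CD44, FZD9 and GREM1. CD44, a cell surface receptor for hyaluronan that is counted among Wnt targets, fell from 1399 ± 34 to 647.4 ± 28.3 RPM (-1.11, SE 0.04; limma adjusted p = 5.6e-08). GREM1, a secreted BMP antagonist, went from 279.2 ± 61.1 to 168.2 ± 5.4 RPM (-0.71, SE 0.12), with control replicate 1 below the other controls. RSPO2, an R-spondin, had 21, 24 and 42 reads in controls and 1, 12 and 8 in knockdowns (log2 fold change -1.77, SE 0.61; limma adjusted p = 0.038). Without knockdown replicate 1, the library with 1 read, the log2 fold change was -0.91, smaller in size than that of CD44. Its call was lost in 4 of the 6 fits that each left out a library, without any of controls 1 to 3 or knockdown replicate 3 (adjusted p in limma 0.056 to 0.11). FZD9 went from 1.62 ± 0.37 to 0.873 ± 0.243 RPM (-0.88, SE 0.24) and was not called without control replicate 1 (-0.71, limma adjusted p = 0.056) or knockdown replicate 3 (-0.78, 0.053).

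The largest rises there were in CXXC4, DKKL1, NFATC2 and CCN4. CXXC4, an inhibitor that binds Dishevelled, rose from 0.953 ± 0.194 to 3.06 ± 0.21 RPM (1.69, SE 0.18; limma adjusted p = 3.4e-05) on 23 to 91 reads per library. CCN4, listed as WISP1 and named for its induction by Wnt, rose from 7.08 ± 0.58 to 13.1 ± 0.6 RPM (0.88, SE 0.09; limma adjusted p = 1.9e-05). NFATC2, a calcium-responsive transcription factor, rose from 4.25 ± 0.60 to 8.12 ± 0.33 RPM (0.94, SE 0.11; limma adjusted p = 8.2e-05). DKKL1 had 5 to 12 reads per library and a call at an adjusted p of 0.047 in limma, which held in only 1 of the 6 fits that each left out a library, that without control replicate 2. CCND1, a cell cycle gene often used as a Wnt readout, read 2277 ± 43 and 2347 ± 50 RPM and did not pass the test (0.04, SE 0.04).

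**Figure D5:**
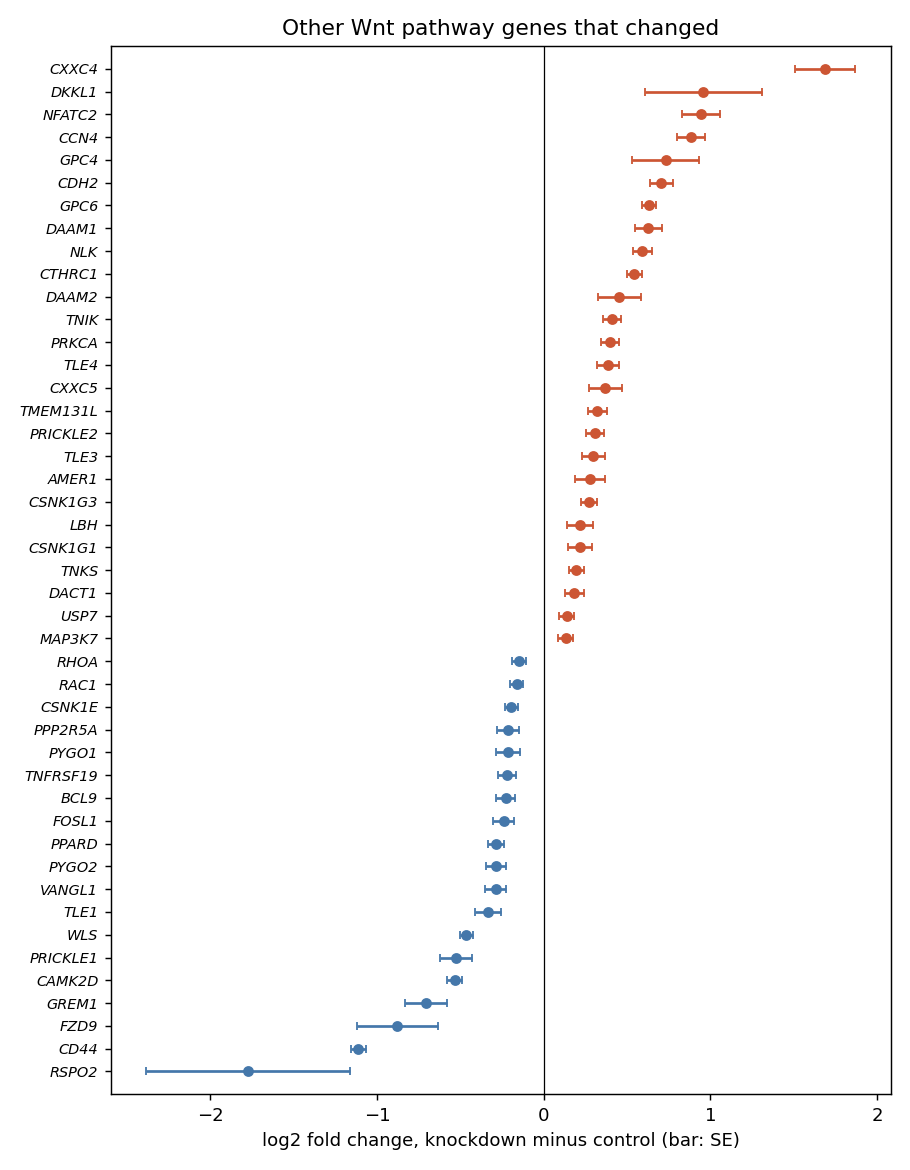
Log2 fold change (knockdown minus control, x axis) with SE for the 45 other Wnt pathway genes that changed, ordered by size and labelled with current symbols; red is higher and blue lower in knockdowns. CXXC4 stands at 1.69 at the top, and RSPO2, with the widest error bar, at -1.77 at the bottom (-0.91 without knockdown replicate 1).

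Overlap was taken from whole gene spans, introns included, and whether overlapping genes share reads was not tested. In the table's own coordinates 33 of the 48 members overlap another listed gene, but only 7 of the tested members overlap 1 with at least 10% of their own reads: WNT2B, WNT5B, FZD4, ROR1, DKK2, DVL3 and TCF7. For 21 of the 27 changed members the call held in every other fit, of 19, that tested them. The exceptions were WNT5B, FZD8, DKK1, APC, DVL2 and ROR2, whose values are given above.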

How the data were processed

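PolyA RNA of 6 libraries, 3 control and 3 knockdown, was sequenced as single reads. Per the submitters' processing notes, reads were mapped with Bowtie2 to hg19 and counted with featureCounts; versions, strand setting, annotation release and normalization step are not given in the sources used here. The deposited values are log2 values per gene and library. Tested on the values, they equal the log2 of reads plus 0.5 per 1000000 of an effective library size, and undoing this gave whole reads for 100% of values (tolerance 0.001). RPM and RPKM (GENCODE 29 exon union lengths) were computed from those reads.

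The test was limma 3.58.1 in R 4.3.3 on the deposited log2 values, with an intensity trend, over the 19048 genes with a mean of at least 10 normalized reads, Benjamini-Hochberg adjustment over all of them and a threshold of 0.05. The 6 members under that minimum were SFRP2, SFRP4, WIF1, RSPO3, NKD1 and RNF43. The fit was also run on simulated counts with few changed genes, the same spread setting for every gene and no GC trend. That is simpler than these data, so it does not measure error rates here. Alternatives were 19: other scalings, offsets, filters, variance models, a GC and length correction, thinning, a replicate block and each library left out.

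The members and lists were chosen with earlier results of these data known. All 48 members are accounted for; values per library are given for those changed by at least 0.5 on the log2 scale and for the 10 most abundant per length, and other pathway genes are named by the 4 largest changes in each direction. At these depths, 3 reads correspond to 0.0596 to 0.134 RPM per library, for counting error only. Coordinates are those of the table. Promoters are from the RefSeq table (GRCh38.p14), which matched 35 members.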

Additional observations from a re-analysis of the deposited data

How the results depend on the processing

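Over the 19 alternatives, 23 to 30 of the Wnt genes were called, 15 to 18 higher and 8 to 13 lower. The 30 calls and the 13 lower ones came from the fit without a filter. With 1 library left out, 23 (without knockdown replicate 3) to 29 were called. None of the 27 called members changed sign. Of the members not called, 4 did: FZD3 was at -0.159 with the GC and length trend removed, -0.103 after thinning, and -0.168 to 0.207 with a library left out; FZD5 was at -0.0038 to 0.148 with a library left out (below zero without control replicate 3); FZD7 was at -0.133 to 0.139, below zero without control replicate 2 or knockdown replicate 2 or 3; ZNRF3 was at 0.0001 with library totals, 0.017 with quantile normalization, 0.0491 after thinning, and -0.0454 to 0.0225 with a library left out. Over all genes, leaving out a library gave 5803 (without control replicate 3) to 7330 calls. Without a filter 10220 genes were called, 54.2% of them higher rather than 42.6%. The median log2 fold change moved from -0.04 to 0.60 in that fit. SFRP4, WIF1 and RNF43, with 0 reads in every library, also stood at 0.60 there. For genes without reads this value comes only from the library sizes, so it measures no rise. With quantile normalization 49.4% were higher.

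Without the intensity trend, 23 members were called, 15 higher and 8 lower, and DKK1 (adjusted p = 0.054 in limma), WNT5B (0.059), APC (0.069) and FZD8 (0.071) were lost. Same-numbered libraries share a replicate number, and the labels do not say whether they were paired. The correlations between their departures from the group mean were -0.15, -0.18 and 0.07. These departures also moved with GC content, so the correlations cannot settle pairing, and the main fit assumes none. With the replicate number as a block, 27 members (16 higher, 11 lower), 36 other pathway genes and 6454 genes in all were called; WNT5B was lost and DKK2 gained. FZD3, FZD5, WNT3 and NKD2 had at most 29 reads in any library. NKD2 was called in 18 of the alternatives and was not tested with a mean of at least 50 reads; what depth limits in the other 3 was not tested.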
